A study of Mus musculus with 3 samples.

Results

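Interferon-stimulated genes were followed across the cell classes of 3 mouse livers. The members were a given list of 35 genes, and 33 of them were measured among the 32285 genes of the count tables. The 2 remaining members, Mx1 and Mx2, were not analysed here. Each member was matched by its symbol, and its unique molecular identifier (UMI) counts were summed over the nuclei of a class in each library.

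The libraries held RNA of single nuclei (sNuc-Seq) from frozen livers. They came from 1 mouse kept on a normal diet (ND) and 2 mice that had developed metabolic dysfunction-associated steatohepatitis and liver fibrosis (STZ-HFHC 1 and STZ-HFHC 2), with 1 library per mouse. All were male C57BL/6 J mice. The STZ-HFHC mice had received 0.2 mg of streptozotocin subcutaneously at 3 days of age, which destroys pancreatic beta cells, and ate a high-fat, high-cholesterol diet from 4 weeks of age. The age at sacrifice was not given in the sources used here. The ND library and the STZ-HFHC libraries carry different codes in their labels, and the meaning of these codes is not stated, so an effect of such a set and the effect of the model cannot be told apart.

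After limits on genes and mitochondrial counts, 8494, 8921 and 10921 nuclei remained in the ND, STZ-HFHC 1 and STZ-HFHC 2 libraries. They held 42715797, 44350401 and 55632923 UMIs, with a median of 4068, 3015 and 4027 per nucleus. Pairs of libraries shared 29 to 32 barcodes. The nuclei formed 20 clusters, of which 15 could be named by fixed markers and 5 could not. The levels below are UMIs per 1000000 UMIs of the same nuclei (CPM), with exact Poisson 95% intervals that cover counting error only. With a single ND mouse there is no spread among controls, so no test was possible and no p-value is given. In its place, a gene was called higher or lower when its UMIs in the class reached 50 over the 3 libraries and each STZ-HFHC mouse was at least 2-fold above, or each at least 2-fold below, ND. Values of the STZ-HFHC mice are given with STZ-HFHC 1 before STZ-HFHC 2. Levels were compared within a gene, not between genes.

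Interferons are cytokines released when a cell senses foreign or misplaced nucleic acid. They bind receptors on neighbouring cells, and the receptor-bound kinases JAK1 and TYK2 pass the signal on to STAT2, which joins IRF9 and moves to the nucleus. There the complex binds the interferon-stimulated response element (ISRE) before its target genes, whereas the gamma-activated site (GAS) is bound after interferon gamma. The products sense viral RNA, degrade it, block its translation, trap virions or feed back on the pathway.

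The letters of both elements were searched in RefSeq promoter windows of the build GRCm38.p6, over the 250 bases before each transcription start and on both strands. The ISRE core was searched as GAAA, any 2 bases and GAAA, and the GAS as TTC, any 3 bases and GAA. Of the 26 members with a promoter entry, 14 held an ISRE core, beside 3.46% of all 27025 genes. A GAS was held by 5 of the 26 members (Irf1, Irf8, Ifit2, Oas1a and Bst2), beside 8.13% of all genes. A match is a description of the letters and does not show that a factor binds there. Members without an entry were Dhx58, Zbp1, Oas2, Mx1, Mx2, Ifi27l2a, Usp18, Parp9 and Parp14. The sequences below show the ISRE core (or, for Irf1 and Irf8, the GAS) in capitals for members whose levels are described below, read 5′ to 3′ on the strand of the gene. A pair of TTTC runs with 2 bases between them is the ISRE core on the opposite strand. Oas1a, Bst2, Trim30a, Trim30d, Gbp3 and Slfn8 were called higher in hepatocyte-like nuclei, Irf1 and Irf8 only in macrophage-like nuclei among the main classes, and Stat2 in none of them.
Oas1a (chr5:120907526-120907555, minus strand): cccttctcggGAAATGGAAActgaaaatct
Bst2 (chr8:71537577-71537606, minus strand): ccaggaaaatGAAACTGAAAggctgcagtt
Trim30a (chr7:104465210-104465239, minus strand): agttctttagTTTCTTTTTCtcagttcctg
Trim30d (chr7:104507871-104507900, minus strand): agttctttagTTTCTTTTTCtcagttcctg
Gbp3 (chr3:142559995-142560024, plus strand): acagtttcagTTTCTATTTCccagatccct
Slfn8 (chr11:83020839-83020868, minus strand): atttgagcagTTTCGTTTTCcccaaaagca
Stat2 (chr10:128270266-128270295, plus strand): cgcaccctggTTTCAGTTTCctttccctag
Irf1 (chr11:53769914-53769942, plus strand): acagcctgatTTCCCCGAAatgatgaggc
Irf8 (chr8:120736195-120736223, plus strand): aagagagcgcTTCAGAGAAggcggatttg
The 30 letters printed for Trim30a and Trim30d, neighbouring genes of the same family, are the same, at slightly different distances from the start, and reads that these paralogs share could have been split between them or left out. In Oas1a, Bst2 and Gbp3 a second ISRE core overlaps the printed core, and in Bst2 the GAS shares bases with an ISRE core. In Irf8 a second GAS lies nearby.

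Hepatocytes make up most of the liver's mass and respond to interferons with a broad set of antiviral genes. Hepatocyte-like nuclei numbered 4714 in ND, against 1269 and 3167 in the STZ-HFHC mice. The ND nuclei of this class and those of the STZ-HFHC mice were in different clusters: one ND cluster was led by Mup genes and the other had Bhmt and Elovl3 among its leading genes, while one STZ-HFHC cluster was led by Cyp2b10 and the other held the pericentral gene Glul among its leading genes. The 2 ND clusters met the main marker rule, with 11 and 5 of 15 hepatocyte markers raised. The STZ-HFHC clusters, with 0 and 1 raised, were named only by a looser second pass for hepatocytes. An ND cluster with Glul among its leading genes had 3 raised and stayed unnamed, outside the class. The summed level of the 15 hepatocyte markers was 24732 CPM in ND, against 20797 and 21158 in the STZ-HFHC mice. Of the 33 members, 30 had at least 50 UMIs, 2 of them only through the STZ-HFHC libraries. Among these 30, 10 were called higher and 0 lower. Over all 13865 genes that passed the same minimum, 7.24% were called higher and 5.78% lower. The median log2 ratio of the members to ND was 0.86 and 0.78 in the STZ-HFHC mice, and the median over all genes was 0.05. Both STZ-HFHC mice were above ND in 25 of the 30 members and below it in 3.

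**Figure D1:**
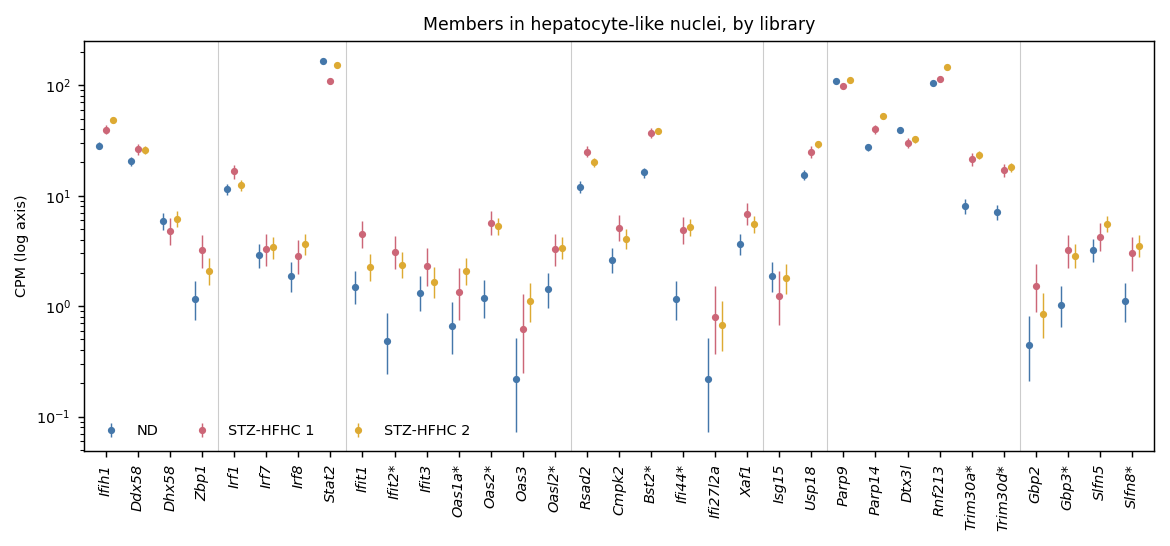
Level of each member in hepatocyte-like nuclei (CPM, log axis) in ND, STZ-HFHC 1 and STZ-HFHC 2, with exact Poisson 95% intervals and an asterisk for a member called higher. Grey lines separate the roles. The 10 called members had ND levels of 0.487 to 16.2 CPM, and Stat2, at 166 CPM in ND, was not above ND in either STZ-HFHC mouse.

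The oligoadenylate synthetases and the IFIT proteins held 4 of the 10 members called in hepatocyte-like nuclei. Oas2, which makes the oligoadenylates that activate RNase L, was at 1.19 CPM (95% interval 0.787 to 1.74) in ND, against 5.68 (4.37 to 7.25) and 5.28 (4.39 to 6.29) in the STZ-HFHC mice. Both STZ-HFHC levels were above ND without overlap of the intervals, by 4.75-fold and 4.42-fold (mean log2 ratio 2.18 ± 0.08, SD over the STZ-HFHC mice, n = 2). Ifit2, whose product binds viral RNA and limits its translation, had the largest mean log2 ratio of the 10, 2.44 ± 0.28 (SD, n = 2). Its level was 0.487 CPM (0.243 to 0.871) in ND, against 3.11 (2.16 to 4.32) and 2.38 (1.8 to 3.1) in the STZ-HFHC mice. Oasl2, a synthetase-like protein, was at 1.42, 3.28 and 3.36 CPM in ND, STZ-HFHC 1 and STZ-HFHC 2, respectively. Oas1a, another synthetase, stood at the edge of the rule: it was 2.01-fold (0.914 to 4.4) above ND in STZ-HFHC 1 and 3.14-fold above it in STZ-HFHC 2. Just outside the rule, Cmpk2, a mitochondrial nucleotide kinase encoded next to Rsad2, was 1.97-fold and 1.57-fold above ND. Ifit2 and Oas1a reached the minimum only through the STZ-HFHC libraries and so had to differ. Ifit1 and Ifit3 were not called. Ifit1 differed between the diseased mice, with 1.5 CPM in ND, against 4.53 and 2.26 in the STZ-HFHC mice.

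Among the membrane-associated effectors, Bst2 (tetherin), which holds budding virions at the cell surface, was at 16.2 CPM (14.6 to 18) in ND, against 37.1 (33.6 to 40.8) and 38.6 (36.1 to 41.2) in the STZ-HFHC mice. It was the called member with the highest UMI count in hepatocyte-like nuclei, and its mean log2 ratio was 1.22 ± 0.04 (SD, n = 2). Ifi44, an interferon-induced antiviral protein, was at 1.15 CPM (0.752 to 1.69) in ND, against 4.88 (3.68 to 6.35) and 5.19 (4.31 to 6.2) in the STZ-HFHC mice. Rsad2 (viperin), which makes a chain-terminating nucleotide, was at 11.9, 25 and 20.1 CPM, 2.09-fold above ND in STZ-HFHC 1 but 1.68-fold in STZ-HFHC 2, and was not called. Trim30a, a TRIM protein that restrains inflammatory signaling, was at 8.01 CPM (6.89 to 9.27) in ND, against 21.4 (18.8 to 24.3) and 23.3 (21.4 to 25.3) in the STZ-HFHC mice. Its neighbour Trim30d was at 7.13, 17 and 18.2 CPM. The guanylate-binding protein Gbp3 was at 1.02, 3.2 and 2.85 CPM, and the schlafen Slfn8, of a family with roles in growth control and antiviral defence, at 1.11, 3.02 and 3.53. That the ND level of each called member was the lowest of the 3 follows from the rule for a call.

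None of the 4 sensors and none of the 4 transcription factors was called in hepatocyte-like nuclei. Ifih1 (MDA5), a sensor of long double-stranded RNA, was at 28.4 CPM (26.3 to 30.7) in ND, against 39.8 (36.2 to 43.6) and 48.4 (45.7 to 51.3) in the STZ-HFHC mice, above ND by less than 2-fold. Stat2, the signal carrier of type I interferons, was at 166 CPM (161 to 172), 110 (104 to 116) and 152 (148 to 158), at 0.662 and 0.918 of its ND level in the STZ-HFHC mice. Irf7, the factor that amplifies interferon production, was at 2.88, 3.28 and 3.41 CPM, with overlapping intervals. Isg15, a ubiquitin-like modifier, was at 1.86, 1.24 and 1.79 CPM, also with overlapping intervals. Usp18, which removes that modifier and dampens the receptor, was at 15.3, 24.9 and 29.1 CPM, 1.62-fold and 1.9-fold above ND. The ADP-ribosyltransferase Parp14 was at 27.4, 40.2 and 52.4 CPM, while Parp9 and its partner ligase Dtx3l were at 109, 99.1 and 112 and at 39.4, 30.2 and 32.4 CPM. Parp9 and Dtx3l overlap on opposite strands.

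Markers of other cell types were also measured in the hepatocyte-like nuclei. Of 17 macrophage markers, 13 were higher in both STZ-HFHC mice than in ND and 0 were at 0 in ND, and their summed level was 62.5 CPM in ND, against 130 and 107 in the STZ-HFHC mice. Of 10 monocyte markers, 9 were higher in both, with sums of 13.2, 22.8 and 21.7 CPM and Ly6c2 at 0 in ND. The 17 T or NK cell markers summed to 38.4, 236 and 256 CPM, of which Themis alone made 17.1, 210 and 219. The 10 dendritic cell markers summed to 474, 831 and 799 CPM, but without Cadm1 the other 9 were lower in the STZ-HFHC mice, at 43.8, 35.3 and 37.8 CPM. The part of the monocyte, T or NK cell and dendritic cell markers in the members' values was not tested. These macrophage markers in hepatocyte-like nuclei were at 6.03%, 3.86% and 5.71% of their summed level in macrophage-like nuclei. The members stood above that share, with their whole interval, in 27, 27 and 31 of 33 cases. Oas2 in hepatocyte-like nuclei was at 8.45%, 7.06% and 8.01% of its level in macrophage-like nuclei, Trim30a at 16.5%, 7.68% and 13.7%, and Bst2 at 201%, 63% and 97%. Irf8 was at 13.1%, 3.86% and 6.11%. With macrophage RNA subtracted in proportion to these markers, 8 members were still called higher (Ifit2, Oas2, Bst2, Ifi44, Trim30a, Trim30d, Gbp3 and Slfn8), the calls of Oas1a and Oasl2 were lost and Irf8 was called lower. After thinning every nucleus to the same depth 3 of the 15 members with enough UMIs were called higher, beside 4.62% of all genes. The class was also replaced by the clusters with Glul among their 10 leading genes, which took the 681 ND nuclei from an unnamed cluster outside the class. There 3 of 13 members were called higher, beside 4.22% of all genes.

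Stellate cells store vitamin A in the healthy liver and lay down collagen in fibrosis. Stellate-like nuclei numbered 1195, 628 and 1311 in ND, STZ-HFHC 1 and STZ-HFHC 2, with the ND nuclei mostly in a cluster of their own. Of the 31 members with at least 50 UMIs, 7 of them only through the STZ-HFHC libraries, 18 were called higher and 0 lower, beside 11.2% of 11835 genes called higher and 8.47% lower. The members' median log2 ratio was 1.44 and 1.39 in the STZ-HFHC mice, and that of all genes was 0.01. Oas2 had the largest mean ratio, with 6.51 CPM (4.77 to 8.69) in ND, against 51.1 (41.5 to 62.2) and 76.6 (68.2 to 85.7) in the STZ-HFHC mice. This was 7.85-fold and 11.8-fold above ND (mean log2 ratio 3.25 ± 0.41, SD, n = 2). Oasl2 was at 9.34, 47 and 46.3 CPM, and Trim30a at 32.4 (28.4 to 36.9), 145 (128 to 163) and 140 (129 to 152). Gbp3 was 6.22-fold and 7.88-fold above ND, and Ifi27l2a, a small interferon-induced protein, 5.47-fold and 6.05-fold.

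In stellate-like nuclei 3 of the 4 sensors were called, and the difference from hepatocyte-like nuclei was not tested. Ifih1 was at 42.8 CPM (38.1 to 47.9) in ND, against 116 (101 to 132) and 132 (121 to 144) in the STZ-HFHC mice. Ddx58 (RIG-I), the sensor of RNA with a 5′ triphosphate, was at 31.9, 76.4 and 83.7 CPM. Zbp1, the sensor of Z-form nucleic acid, was at 2.41, 12.4 and 6.57 CPM. The rule for a call places all 3 above ND in both mice. Dhx58 (LGP2), the third RIG-I-like receptor, was not called, at 8.35, 8.26 and 7.08 CPM. Isg15, which had enough UMIs in 2 of the 4 main classes, was called in stellate-like and not in hepatocyte-like nuclei. Its stellate-like level was 2.97 CPM in ND, against 8.26 and 7.58 in the STZ-HFHC mice. In stellate-like nuclei, Zbp1, Isg15 and Ifi27l2a were among the members that reached the minimum only through the STZ-HFHC libraries and so had to differ. Parp14 was at 53.2, 121 and 142 CPM, and Dtx3l at 37.2, 25.8 and 24.8. The transcription factors were not called, with Stat2 at 177, 120 and 146 CPM and Irf1 at 21.8, 31.5 and 31.9.

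**Figure D2:**
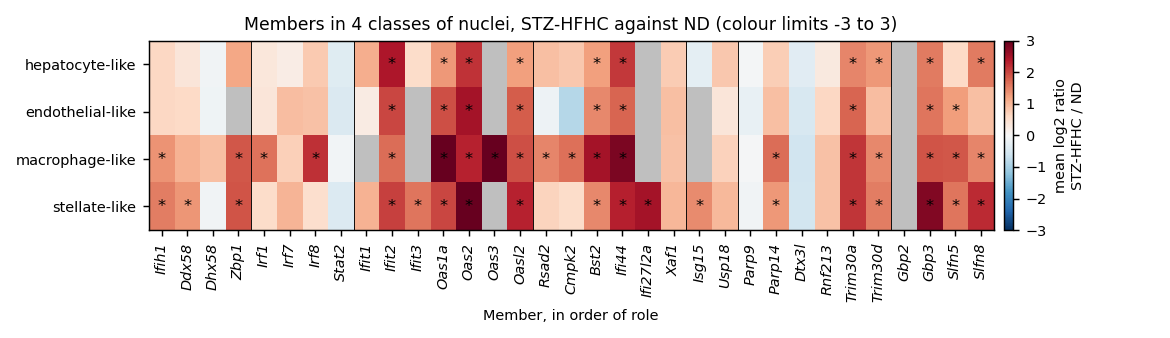
Mean log2 ratio of the 2 STZ-HFHC mice to ND for the 33 measured members (columns). The rows are, from the top, hepatocyte-like, endothelial-like, macrophage-like and stellate-like nuclei. Colour runs from -3 to 3, grey marks fewer than 50 UMIs, and an asterisk marks a call. Of the members, 8 were called in all 4 classes and 10 in none, among them Gbp2, which was under the minimum throughout.

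Liver macrophages comprise resident Kupffer cells and cells recruited from monocytes, and they sense nucleic acid from dying cells. Macrophage-like nuclei numbered 244 in ND, against 1276 and 895 in the STZ-HFHC mice, and the 2 conditions lay in different clusters: the ND nuclei lay in a cluster with the Kupffer cell genes Clec4f, Cd163 and Timd4, and those of the STZ-HFHC mice in a cluster led by Atp6v0d2, Gpnmb and Mmp12. Of the 28 members with at least 50 UMIs, 7 of them only through the STZ-HFHC libraries, 19 were called higher and 0 lower, beside 14.4% of 10141 genes called higher and 5.32% lower. The median log2 ratio of the members was 1.69 and 1.44 in the STZ-HFHC mice, and that of all genes was 0.17. Oas2 was at 14.1 CPM (7.73 to 23.7) in ND, against 80.5 (71.2 to 90.6) and 65.9 (56.8 to 76.1) in the STZ-HFHC mice. Oas1a rested on 2 UMIs in ND and was 11.6-fold (3.1 to 97.2) and 9.42-fold (2.48 to 79.7) above it. Oas3 had 0 UMIs in ND, which allows a level of up to 3.03 CPM, and 60 and 44 UMIs in the STZ-HFHC mice, at least 5.86-fold and at least 5.12-fold higher. The 7 members that reached the minimum only through the STZ-HFHC libraries were Zbp1, Ifit2, Oas1a, Oas3, Cmpk2, Ifi44 and Gbp3. They had to differ, and all 7 are among the 19 called.

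In macrophage-like nuclei 2 of the 4 transcription factors were called. Irf8, which directs the development of monocytes and dendritic cells, was at 14.1 CPM (7.73 to 23.7) in ND, against 73.7 (64.8 to 83.4) and 59.9 (51.2 to 69.6) in the STZ-HFHC mice. Irf1, induced by interferon gamma, was at 13.1 (6.99 to 22.5), 50 (42.7 to 58.1) and 34.9 (28.4 to 42.5) CPM. Neither interval of a STZ-HFHC mouse overlapped that of ND for these factors. Bst2 was at 8.08 CPM (3.49 to 15.9), 58.9 (51 to 67.6) and 39.8 (32.8 to 47.9), and Trim30a at 48.5 (35.8 to 64.3), 279 (261 to 297) and 170 (155 to 186). Trim30a thus also differed between the STZ-HFHC mice, with the higher level in STZ-HFHC 1. Parp14 was at 57.6, 195 and 173 CPM, and Rsad2 and Slfn5 were called as well, at 13.1, 33.1 and 41.9 and at 20.2, 84 and 67 CPM. Stat2, at 177, 159 and 177 CPM, and Parp9, at 136, 136 and 131, had intervals that overlapped those of ND. At a coarser clustering resolution of 0.5, which left 53 ND nuclei in the class against 1994 and 1410, the median log2 ratio of the members was 0.42, 9 were called higher beside 9.29% of all genes, 1 was called lower, and Zbp1, Irf8, Oas3, Oasl2 and Gbp3 turned below ND.

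Sinusoidal endothelial cells line the liver's capillaries. Endothelial-like nuclei numbered 1186, 878 and 1019, again with the ND nuclei mostly in a cluster of their own. Of the 27 members with at least 50 UMIs, 4 of them only through the STZ-HFHC libraries, 9 were called higher and 0 lower, beside 8.57% of 11577 genes called higher and 5.48% lower. The members' median log2 ratio was 0.81 and 0.88 in the STZ-HFHC mice, and that of all genes was 0.11. Oas2 was at 4.09 CPM (2.74 to 5.87) in ND, against 23.1 (17.7 to 29.7) and 23.6 (18.7 to 29.3) in the STZ-HFHC mice, or 5.66-fold and 5.76-fold above ND. Trim30a was at 35.5, 131 and 107 CPM, Bst2 at 19.2, 50.8 and 53.5, and Slfn5 at 24.3, 64.1 and 52.3. These members were called, which by the rule places them above ND in both mice. Rsad2, at 28.8 (25 to 33), 25.4 (19.7 to 32.3) and 25.9 (20.8 to 31.8) CPM, and Cmpk2, at 5.78, 4.55 and 2.04, were below ND in both mice and not called.

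Across these 4 classes, 8 members were called in every class: Ifit2, Oas1a, Oas2, Oasl2, Bst2, Ifi44, Trim30a and Gbp3. A further 3 (Trim30d, Slfn5 and Slfn8) were called in 3 classes, and 3 (Ifih1, Zbp1 and Parp14) in 2. Dhx58, Irf7, Stat2, Xaf1, Usp18, Parp9, Dtx3l and Rnf213 had enough UMIs in all 4 and were called in none, and Ifit1 had enough in 3 and was called in none. Gbp2 was under the minimum in each of the 4. The 4 classes come from the same 3 livers, so these counts are not independent of each other. Ifit2, Oas1a, Ifi44, Gbp3 and Zbp1 reached the minimum in macrophage-like nuclei only through the STZ-HFHC libraries and so had to differ there. In hepatocyte-like nuclei this held for Ifit2 and Oas1a, and in stellate-like nuclei for Zbp1 among others. In ND, Stat2 was at 166, 173, 177 and 177 CPM in hepatocyte-like, endothelial-like, stellate-like and macrophage-like nuclei, respectively.

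Hepatocyte markers were also measured in the other classes, at higher levels in ND. The summed hepatocyte markers were at 22071 CPM in the macrophage-like nuclei of ND and at 10042 and 15236 in those of the STZ-HFHC mice. In stellate-like nuclei they were at 19154, 8683 and 11026 CPM, and in endothelial-like nuclei at 20354, 11656 and 15011. The markers of each class itself moved the opposite way: from 1283 to 3514 and 2077 CPM in macrophage-like, from 1758 to 6388 and 5039 in stellate-like, and from 2668 to 6687 and 4600 in endothelial-like nuclei. The stellate list holds collagen genes. Measured against the hepatocyte-like nuclei of the same library, the hepatocyte markers would account for 89.2%, 48.3% and 72% of the UMIs of macrophage-like nuclei, 77.4%, 41.8% and 52.1% of those of stellate-like and 82.3%, 56% and 70.9% of those of endothelial-like nuclei. CPM levels outside the hepatocyte-like class hold this RNA in their denominator, and more of it in ND. Its part in the calls above was measured as follows.

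**Figure D3:**
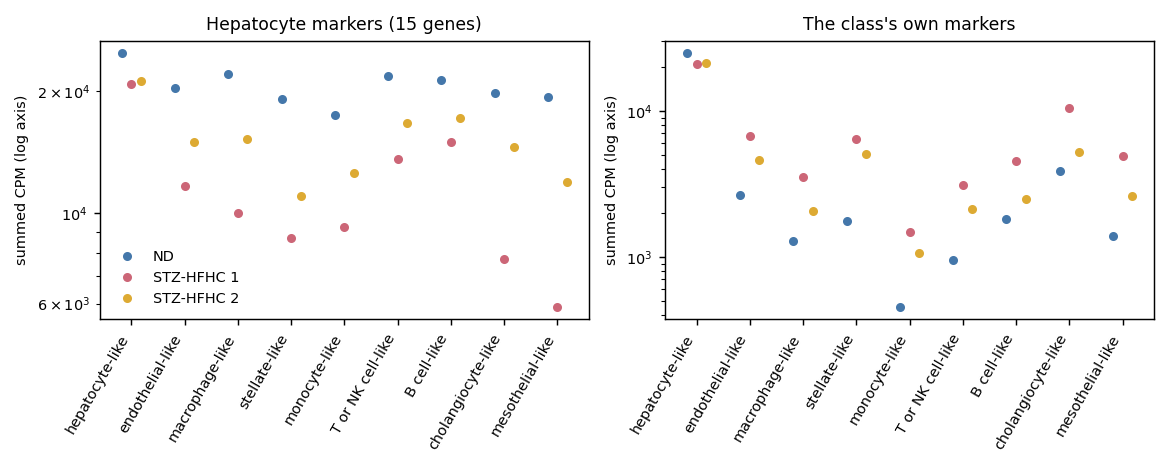
Summed level (CPM, log axes) of the hepatocyte markers and of the markers of the class itself, by class and library. Outside the hepatocyte-like class, the hepatocyte markers were lower and the own markers higher in both STZ-HFHC mice than in ND.

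With hepatocyte RNA subtracted in proportion to the hepatocyte markers, the members called higher were Oas2, Oasl2, Ifi27l2a, Trim30a, Gbp3 and Slfn8 in stellate-like nuclei. In macrophage-like nuclei they were Ifih1, Irf1, Oas1a, Oas3, Cmpk2, Bst2 and Ifi44, with Dtx3l called lower, and in endothelial-like nuclei Oas2 and Bst2, with Rsad2 and Cmpk2 lower. Of all genes, 11.4%, 27% and 15.3% were then called higher in these classes, so that the 7 of 28 members in macrophage-like and the 2 of 27 in endothelial-like nuclei did not stand above the background. The members' median log2 ratio became 0.77, 0.59 and 0.16, respectively, beside -0.10, 0.08 and 0.07 over all genes. Scaled by the markers of the class itself, Oas2 alone stayed above the threshold in stellate-like and endothelial-like nuclei, where the median turned to -0.28 and -0.15. This scaling moved all genes down, to a median of -1.68 in stellate-like, -0.95 in endothelial-like and -0.91 in macrophage-like nuclei, and the share of all genes called higher to 0.972%, 1.77% and 4.57%. Dhx58, Stat2, Parp9 and Dtx3l were called lower in stellate-like nuclei, and Stat2, Cmpk2 and Dtx3l in endothelial-like nuclei. The macrophage-like nuclei then had 6 members called higher (Oas1a, Oas2, Oas3, Bst2, Ifi44 and Trim30a), 1 lower (Dtx3l) and a median of 0.56. This last scaling takes the own markers as unchanged per nucleus, which was not tested. In hepatocyte-like nuclei, from which no hepatocyte RNA was subtracted, the median of 30 members was 0.80. Oas2 was called under every alternative that gave it enough UMIs in hepatocyte-like, stellate-like and endothelial-like nuclei, and Ifit2 and Ifi44 in hepatocyte-like nuclei. In macrophage-like nuclei, Oas2 lost its call with hepatocyte RNA subtracted.

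**Figure D4:**
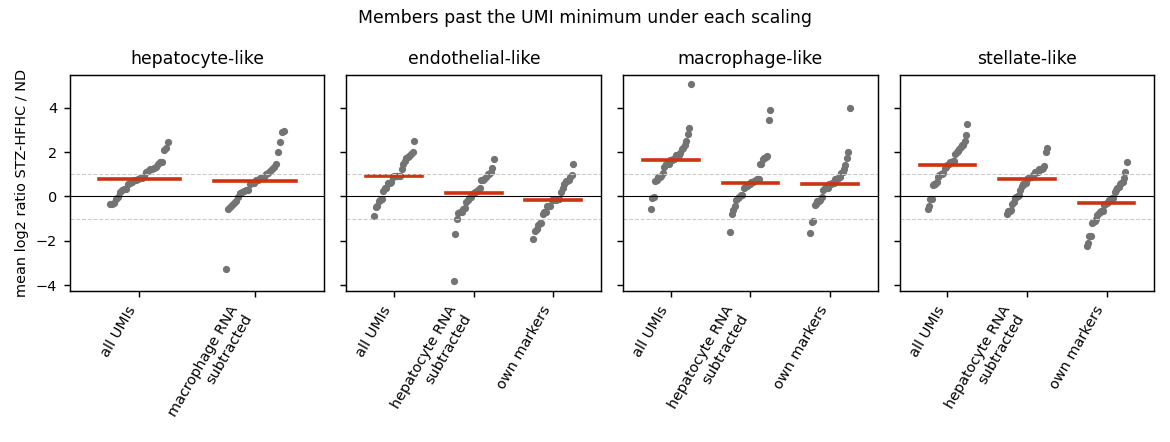
Mean log2 ratio to ND of each member (points) by class and scaling, with the median as a red line and dashed lines at -1 and 1. The median in stellate-like nuclei was 1.41 per all UMIs, 0.77 with hepatocyte RNA subtracted and -0.28 per own markers.

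Fewer members passed the minimum in the smaller classes. Monocyte-like nuclei numbered 42 in ND, against 712 and 512 in the STZ-HFHC mice, and 15 members had 0 UMIs in ND. Of the 21 members that passed, 9 of them only through the STZ-HFHC libraries, 10 were called higher and 0 lower, beside 11.5% and 7.42% of all genes. The median was 1.32, and 0.48 with members at 0 in ND set to their bound. The STZ-HFHC mice differed in this median, with 1.51 and 0.74. Parp14 was at 63.6 CPM in ND (6 UMIs), against 204 and 209 in the STZ-HFHC mice, and Rnf213, a large ubiquitin ligase, at 138, 377 and 339. In T or NK cell-like nuclei 5 of 12 members were called higher and 0 lower, beside 11% and 4.57% of all genes, and 4 of the 12 passed only through the STZ-HFHC libraries. Trim30a was at 26.9, 144 and 120 CPM there. In B cell-like nuclei 2 of 6 members were called higher and 0 lower, beside 5.49% and 3.85% of all genes, with Irf8 at 13.2, 65.4 and 61.1 CPM and Trim30a at 33, 137 and 113. Of these 6, 3 passed only through the STZ-HFHC libraries. Both called members, Irf8 and Trim30a, were among them and so had to differ. In cholangiocyte-like nuclei 0 of 6 members were called, beside 9.09% of all genes higher and 4.26% lower. In mesothelial-like nuclei 0 of 3 were called, beside 7.47% higher and 4.44% lower. The markers of these classes themselves were also higher per UMI in both STZ-HFHC mice, and their part in these counts was not tested.

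The order of classes depended on the member. Irf8 was highest in a small unnamed cluster led by Siglech, a receptor of plasmacytoid dendritic cells, with 308 CPM in ND, against 533 and 433 in the STZ-HFHC mice (25, 88 and 144 nuclei). In both STZ-HFHC mice its interval lay above that of the next class, the monocyte-like nuclei, at 121 and 136 CPM, while in ND the intervals overlapped. Oas2 was highest in macrophage-like nuclei of STZ-HFHC 1, at 80.5 CPM, and in stellate-like nuclei of STZ-HFHC 2, at 76.6, where the interval overlapped that of monocyte-like nuclei at 66.5. Among named classes, Trim30a and Parp14 were lowest in the hepatocyte-like nuclei of every library, although in ND the interval of Trim30a overlapped that of mesothelial-like nuclei. In ND, no member's highest class had an interval above that of the class with the second highest level. In STZ-HFHC 1 and 2 such an interval was found for only 5 and 6 members. Classes further down were not compared in this way. The unnamed ND cluster with Glul and the one led by mitochondrial genes were not ranked.

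**Figure D5:**
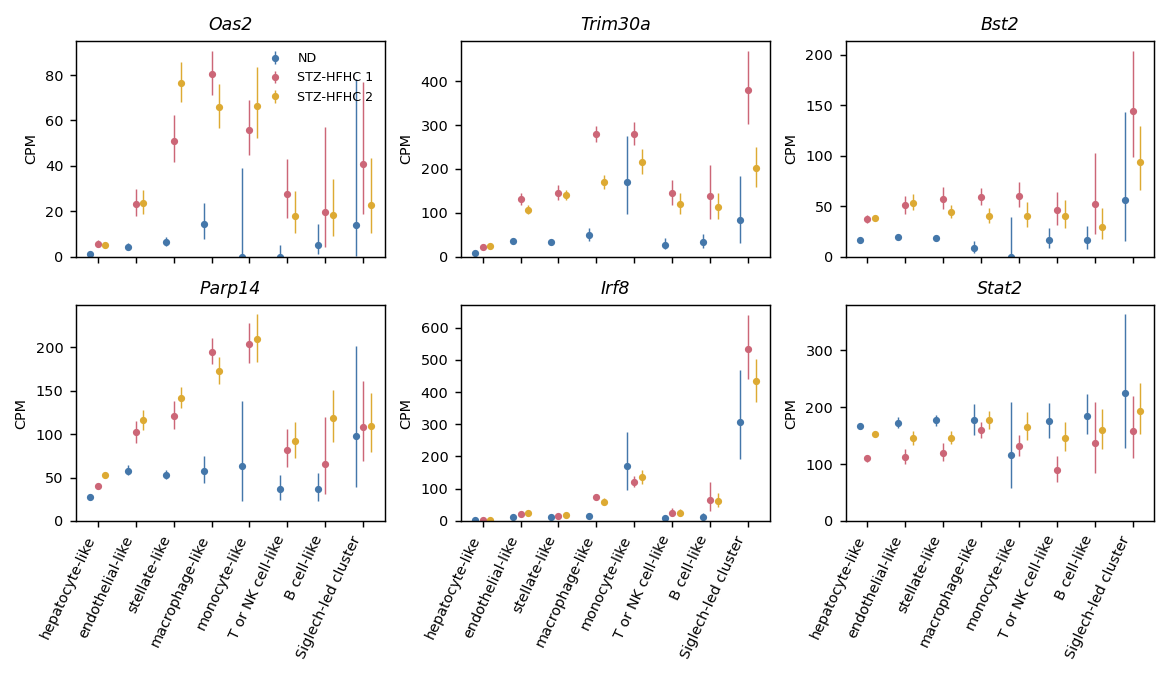
Level (CPM) of Oas2, Trim30a, Bst2, Parp14, Irf8 and Stat2 by class and library, with exact Poisson 95% intervals, including the unnamed cluster led by Siglech. Irf8 was highest in that cluster, and Stat2 lay at 166 to 177 CPM in the 4 larger classes of ND.

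The share of nuclei with a member's UMI was compared at equal depth. After thinning to 1000 UMIs, with shallower nuclei left out, at least 1 member was found in 42.4%, 43.4% and 50.8% of hepatocyte-like, 54.9%, 77.9% and 79.7% of stellate-like and 64.6%, 84% and 84.2% of macrophage-like nuclei. Oas2 had a UMI in 0.0445% of hepatocyte-like nuclei of ND (2 of 4498), against 0.396% and 0.699% of those of the STZ-HFHC mice. In stellate-like nuclei the shares were 0.992%, 5.86% and 9.26%, and in macrophage-like nuclei 3.7%, 8.53% and 9.52%. Without thinning, Oas2 was detected in 0.53%, 4.73% and 3.76% of hepatocyte-like nuclei, whose median depths were 4069.5, 7900 and 6560 UMIs. At equal depth, at least 3 members were found in 6.88% of macrophage-like nuclei of ND, against 34.8% and 30.4% of the STZ-HFHC mice, and in 2.22%, 2.69% and 4% of hepatocyte-like nuclei. Thinning equalised all UMIs, not those of the cell itself. Hepatocyte markers would account for 89.2%, 48.3% and 72% of the UMIs of macrophage-like and 77.4%, 41.8% and 52.1% of those of stellate-like nuclei. The part of this RNA in the thinned shares was not tested. No class is known to lack these genes, so the share that free RNA alone gives could not be read from a negative class.

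The 2 STZ-HFHC mice were then compared with each other. The median log2 ratio of STZ-HFHC 1 to STZ-HFHC 2 over the members was -0.09 in hepatocyte-like, -0.02 in endothelial-like, -0.13 in stellate-like and 0.23 in macrophage-like nuclei. The counting interval of this ratio excluded equality for 9, 7, 7 and 9 members in these classes. In macrophage-like nuclei all 9 were higher in STZ-HFHC 1 (Irf1, Irf8, Ifit2, Oas2, Oasl2, Bst2, Parp14, Trim30a and Slfn5), and in the other classes they went in both directions. Hepatocyte markers would account for 48.3% of the UMIs of macrophage-like nuclei in STZ-HFHC 1, against 72% in STZ-HFHC 2. The own markers there were at 3514 and 2077 CPM. This share was also lower in STZ-HFHC 1 in stellate-like and endothelial-like nuclei. Its part in the differences between the mice was not tested. Between the 2 mice, Ifit1 in hepatocyte-like and Ifit2 in macrophage-like nuclei were the members at least 2-fold apart, beside 6.64% and 6.18% of all genes in those classes.

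The other parts of the pathway were counted from lists of ligands, receptors, relay proteins, inhibitors and further interferon-stimulated genes. The interferon ligands were nearly undetected. Of 11 in the tables, 8 had 0 UMIs in every library, among them every interferon alpha and lambda listed. Ifng had 2, 2 and 7 UMIs in ND, STZ-HFHC 1 and STZ-HFHC 2, and Ifnb1 0, 15 and 2. Of the 15 UMIs of Ifnb1, 14 came from 1 nucleus of an unnamed cluster led by mitochondrial genes. Ifnk had 61, 11 and 74 UMIs.

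Of 6 receptor chains, 5 passed the minimum in hepatocyte-like nuclei and 0 were called, with Ifnar2 at 69, 36.1 and 24.5 CPM. Of 15 relay genes, 13 passed, 2 were higher and 1 was lower in hepatocyte-like nuclei, beside the 7.24% and 5.78% of all genes, so the share lower was near that of all genes. Ikbke, a kinase that activates IRF3 and IRF7, was at 17.7, 63.5 and 60.3 CPM, and Tlr7, a receptor for single-stranded RNA mostly of immune cells, at 0.62, 3.64 and 3.02. Irf3, the factor that starts interferon beta transcription, was lower, at 43.9, 15.2 and 21.8 CPM. Irf3 was called lower in endothelial-like nuclei as well, at 47.8, 16.7 and 19.8 CPM, and in stellate-like nuclei, at 44.2, 7.23 and 15.4. The adaptor Mavs was also lower in stellate-like nuclei, at 80.7, 20.1 and 28.6 CPM. Of the 11 relay genes that passed there, 2 were lower and 2 higher (Ikbke and Tlr7), beside 8.47% and 11.2% of all genes. Tlr7 reached the minimum only through the STZ-HFHC libraries in hepatocyte-like and stellate-like nuclei, as did Cgas in macrophage-like nuclei. In macrophage-like nuclei Jak2, Irf5, Ikbke, Cgas and Tlr7 were among the relay genes called higher. The inhibitor Samhd1, which depletes nucleotides, was at 50.5, 190 and 128 CPM there, and Ptpn6 was called too.

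Of 54 further interferon-stimulated genes measured, 12 of the 43 that passed were called higher in hepatocyte-like nuclei, 15 of 36 in endothelial-like, 20 of 39 in stellate-like and 21 of 40 in macrophage-like nuclei, and 0 lower in each. The shares of all genes called higher in these classes were 7.24%, 8.57%, 11.2% and 14.4%. In hepatocyte-like nuclei they were Oas1c, Herc6, Ifi204, Ifi207, Gbp6, Gbp9, Psmb9, Epsti1, Phf11b, Parp11, Slfn2 and Cxcl10. The counts of called genes include some that reached the minimum only through the STZ-HFHC libraries and so had to differ. In hepatocyte-like nuclei they were Gbp9, Phf11b and Slfn2, in endothelial-like nuclei Ifi209 and Gbp5, and in stellate-like nuclei Oas1g, Ifi209, Slfn2 and Cxcl10. In macrophage-like nuclei they were Oas1g and Cxcl10, both with 0 UMIs in ND, and Sp110, Ifi209, Gbp6, Gbp9, Tap1, Psmb9, Phf11d, Slfn2 and Ms4a4c. The shares without these genes were not measured. The chemokine Cxcl10, which attracts activated T cells, was at 0.974, 7.81 and 3.11 CPM in hepatocyte-like nuclei. The ubiquitin ligase Herc6, which attaches ISG15, was at 18.2, 41.8 and 36.7 CPM there. The median log2 ratio over this list was 0.63, 1.13, 1.22 and 1.43 in the 4 classes in that order. The same hepatocyte RNA and own markers move with these values as with those of the members.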

How the data were processed

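Frozen livers of 1 ND and 2 STZ-HFHC mice gave 1 sNuc-Seq library each. The files deposited by the authors hold raw UMI counts per gene and barcode, made from 10x 3′ libraries with Cell Ranger 7.0.1 against mm10 per the submitters' processing notes. Use of intronic reads and correction for free RNA are not given in the sources used here. The members and lists were chosen with earlier results of these data known.

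Barcodes outside 200 to 5000 genes or over 5% mitochondrial counts were removed, as were genes found in fewer than 3 nuclei. Clustering of the pooled libraries was run in Scanpy 1.11.5 (Python 3.11.15) with 2000 variable genes, 30 principal components, 15 neighbors and Leiden resolution 1, without batch correction. The members and the other genes of the pathway, 127 genes in all, were left out of clustering. Clusters were named X-like from marker lists of 13 cell types. A marker was raised at 2-fold over its median in other clusters and in 5% of nuclei, and at least 3 markers and 33.3% of the list were required. Clusters with 50% of another list raised, or led by another type or by mitochondrial genes, stayed unnamed. A second pass for hepatocytes required 3 markers at 1.2 times other clusters. The rule had 3 versions, and both revisions were made after clusters had been seen. Doublets were scored with Scrublet, whose automatic threshold was not used, and were kept. Leaving out the highest 8% of scores was an alternative.

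UMIs were summed per class and library, with depths of 42715797, 44350401 and 55632923 UMIs in ND, STZ-HFHC 1 and STZ-HFHC 2. Log2 ratios to ND used 0.5 added counts, levels needed 20 nuclei, and a count of 0 was taken to allow 3 counts. Shares were taken after 1 random thinning of each nucleus to 1000 UMIs. All members were described and the called genes of the pathway lists named; the leading genes of clusters are named from their values. Alternatives changed the barcode limits, resolution, doublets, scaling, added counts, minimum and fold, and left out each STZ-HFHC mouse. Subtraction of hepatocyte or macrophage RNA, scaling by own markers and changes to the hepatocyte-like class were added after the data had been seen. The call rule, the subtraction and the thinning were tested on simulated data. Of the identifiers, 99.6% were found in GENCODE M21, and the 33 members had 0 overlaps with a gene on the same strand.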

Additional observations from a re-analysis of the deposited data

How the results depend on the processing

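With 1 ND mouse no spread among controls exists, and the depth limits the members under 50 UMIs and every ND level of the monocyte-like and macrophage-like classes. No paired analysis was possible because ND has 1 mouse and carries no replicate number. Shares in parentheses are those of all genes called in either direction. In hepatocyte-like nuclei, 3 of 15 members were called after thinning (9.93%), 5 of 19 at 200 UMIs (10.3%), 3 of 30 at 3-fold (4.82%) and 3 of 13 in the clusters with Glul among their leading genes (7.62%), against 10 of 30 (13%), all higher. Their median of 0.80 became 0.97 without barcode limits, 0.89 and 0.99 at resolutions 0.5 and 2, 0.49 thinned, 0.74 at 200 UMIs, 0.67 with macrophage RNA subtracted, 0.56 in the clusters with Glul and 0.90 without the Mup cluster. In endothelial-like nuclei, 14 of 26 were called at resolution 2 (22.8%), 5 of 18 thinned (13.9%), 3 of 15 at 200 UMIs (11.9%) and 5 of 27 at 3-fold (4.98%), all higher, and 4 of 27 with hepatocyte RNA subtracted (2 lower; 29.7%) and per own markers (3 lower; 30.2%), against 9 of 27 (14%), all higher. Their median of 0.90 became 1.23 at resolution 2, 1.10 without doublets, 0.79 with median ratio scaling, 0.75 thinned, 0.62 at 200 UMIs, 0.16 subtracted and -0.15 per own markers. In macrophage-like nuclei, 12 of 19 were called thinned (19.9%), 12 of 17 at 200 UMIs (18%) and 10 of 28 at 3-fold (8.84%), all higher, and, with 1 lower in each, 10 of 30 at resolution 0.5 (21.5%), 8 of 28 subtracted (48.3%) and 7 of 28 per own markers (28.8%), against 19 of 28 (19.7%), all higher. Their median of 1.63 became 0.42 at resolution 0.5, 1.83 without doublets, 1.32 with 2 counts added, 1.31 thinned, 0.59 subtracted and 0.56 per own markers. In stellate-like nuclei, 7 of 20 were called thinned (16.1%), 9 of 16 at 200 UMIs (18.3%), 9 of 31 at 3-fold (8.23%) and 6 of 31 subtracted (29%), all higher, and 5 of 31 per own markers (4 lower; 74.5%), against 18 of 31 (19.7%), all higher. Their median of 1.41 became 1.51 without barcode limits, 1.54 without doublets, 1.04 thinned, 1.32 at 200 UMIs, 0.77 subtracted and -0.28 per own markers. Fewer UMIs remained after thinning and fewer genes at 200 UMIs; the cause of the other shifts was not tested. Without STZ-HFHC replicate 1 or 2 the counts were 10 to 13, 9 to 12, 19 to 20 and 20 to 21 and the medians 0.78 to 0.86, 0.81 to 0.88, 1.44 to 1.69 and 1.39 to 1.44 in hepatocyte-like, endothelial-like, macrophage-like and stellate-like nuclei. At resolution 0.5 in macrophage-like nuclei the mean log2 ratio turned to -0.39 for Zbp1, -0.54 for Irf8, -0.98 for Oas3, -0.61 for Oasl2 and -0.66 for Gbp3, and with hepatocyte RNA subtracted to -0.076 for Slfn8. Scaling per own markers lowers every gene of a class alike, by which in stellate-like nuclei the ratio turned to -0.16 for Ifih1, -0.36 for Ddx58, -0.089 for Ifit3, -0.24 for Bst2, -0.28 for Isg15, -0.39 for Parp14, -0.16 for Trim30d and -0.083 for Slfn5. Of the members' values under alternatives, 57 newly passed the threshold and 121 fell short of it. A further 14, all of members called in the main analysis, reversed, 8 of these by the scaling per own markers. The other 1440 kept their side of the threshold, but not always their direction. A change of sign in a member that was not called was not counted as a reversal. Per own markers, for example, Ifih1 in endothelial-like nuclei went from 0.63 to -0.43. Resolution 0.5 in endothelial-like and resolution 2 in macrophage-like nuclei gave no value, since fewer than 20 nuclei of a library were left.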

Other observations

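An unnamed cluster led by Nrg1 and Ephb2, with 0 nuclei from ND and 1734 and 1584 from the STZ-HFHC mice, had Oas2 at 5.51 and 4.32 CPM, Bst2 at 30.1 and 31.2, Trim30a at 22.2 and 24.2, Ifi44 at 3.92 and 3.19 and Ifit2 at 3.52 and 1.99 in STZ-HFHC 1 and 2. Without an ND level no ratio could be formed. With it counted as hepatocyte-like, 14 of 33 members were called higher beside 8.76% of all genes, against 10 of 30 without it.

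In the unnamed cluster with both endothelial and macrophage markers (39 nuclei of ND, against 777 and 951 of the STZ-HFHC mice), Oas2 was at 19.8 CPM in ND (3 UMIs), 57.1 in STZ-HFHC 1 and 54.8 in STZ-HFHC 2.

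Over all nuclei of a library, Oas2 was at 3 CPM in ND, against 22.4 and 20.9 in the STZ-HFHC mice, and Trim30a at 19.4, 92.9 and 69.7. Hepatocyte-like nuclei gave 21.1% of the Oas2 UMIs in ND, against 6.45% and 10.7% in the STZ-HFHC mice, and macrophage-like nuclei 10.9%, 27.4% and 16.1%. These totals combine the level per class with the number of nuclei of each class.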
